A study of Mus with 438 samples.

Results

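Cones of the adult superior retina were compared by the opsin RNA that each cell held. For each cell the M share was computed as Opn1mw/(Opn1mw + Opn1sw), the part of the opsin RNA that encodes M opsin, and cells were chosen by these 2 measured values: M-dominant above a share of 0.9, mixed at 0.9 or less. The comparison takes in 79 of the 429 cells of the study (400 cones and 29 rods). The collection labelled 2 months gave 12 M-dominant and 41 mixed cells, and the collection labelled postnatal day 60 (P60) gave 14 M-dominant and 12 mixed cells. A superior collection of postnatal day 21 (P21), which the choice of the adult cells did not use, was split the same way into 14 M-dominant and 10 mixed cells.

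The study measured RNA in single mouse cones, on the C57BL/6 strain, to ask how a thyroid hormone receptor shapes cone diversity. All M-dominant and mixed cells carried the genotype Trb2Cre-het:Ai6, so M-dominant and mixed cells alike were heterozygous for a Cre driver placed at the receptor gene Thrb and held a Cre-dependent green reporter. Pieces of superior retina were dissociated with papain, fluorescent cells were drawn singly into a suction pipette, and cDNA was made with the SMART-Seq v4 kit. The reporter marks cells in which the driver has been active, and the labels name no animal, so how many animals stand behind a class is unknown.

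Mouse cones build their light-sensing discs with M opsin, S opsin or both, and these pigments run in opposite gradients across the retina. Superior cones are rich in M opsin, inferior cones in S opsin, and many cells make a mixture. The receptor isoform TRβ2, a product of Thrb, is needed to switch on M opsin and to hold S opsin down, and it works as a DNA-bound partner of retinoid X receptors. The split asks whether superior cones that have little S opsin differ in other genes from neighbours that have much of it.

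The shares that chose the classes are given as a description only. In the 2 months collection the share lay between 0.910 and 0.995 (median 0.959) in M-dominant cells, and between 0.0654 and 0.876 (median 0.383) in mixed cells. At P60 it lay between 0.914 and 0.992 (median 0.976) in M-dominant cells, and between 0.150 and 0.860 (median 0.386) in mixed cells. Nearest to the limit were M-dominant cells at 0.910 and 0.914 and mixed cells at 0.876 and 0.860, and 8 cells of the 2 months collection and 7 of P60 lay within 0.05 of it. In the 2 months collection 1 mixed cell had a share below 0.1.

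The levels of both opsins follow from the choice of the classes and are given as a description, with no test. Opn1sw averaged 675 CPM (reads of a gene scaled to the depth of the library) in M-dominant and 16165 CPM in mixed cells of the 2 months collection, and 397 CPM in M-dominant and 18755 CPM in mixed cells at P60, so the mixed mean was 23.9 and 47.3 times the M-dominant mean. Opn1mw averaged 11019 CPM in M-dominant and 9183 CPM in mixed cells at 2 months, and 10502 CPM in M-dominant and 9892 CPM in mixed cells at P60. The M-dominant mean of Opn1mw was thus 1.20 and 1.06 times the mixed mean. Across cells the levels of the opsins had a Spearman coefficient of -0.0739 (53 cells, 2 months) and -0.0933 (26 cells, P60), where both values of a point come from the same library. Together the opsins took 1.17% of reads in M-dominant and 2.53% in mixed cells at 2 months, and 1.09% in M-dominant and 2.86% in mixed cells at P60.

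**Figure D1:**
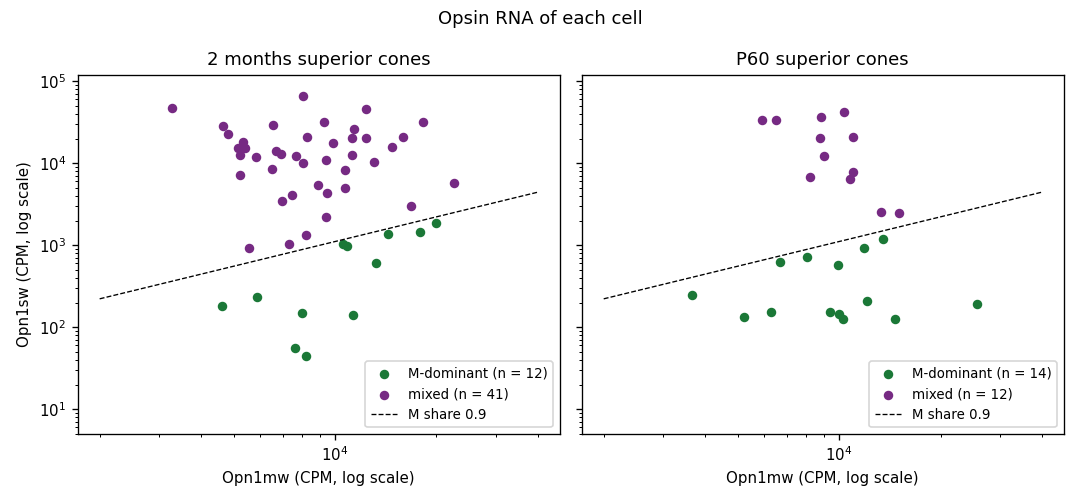
M opsin (Opn1mw, horizontal) and S opsin (Opn1sw, vertical) in CPM on log axes, 1 point per cell, for the 2 months and P60 collections; the dashed line is an M share of 0.9. The M-dominant cells lie below the line, at 44.3 to 1850 CPM of Opn1sw at 2 months and 125 to 1202 CPM at P60; on the horizontal axis they span 4629 to 19961 and 3653 to 25613 CPM, against 3269 to 22522 and 5901 to 15037 CPM in mixed cells.

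Depth and other signs of library quality differed little between the classes within a collection. Reads per cell averaged 1.47e+07 in M-dominant and 1.44e+07 in mixed cells at 2 months, and 1.89e+06 in M-dominant and 2.09e+06 in mixed cells at P60. Genes above 0 averaged 6095 in M-dominant and 6330 in mixed cells at 2 months, and 4294 in M-dominant and 4247 in mixed cells at P60. The cone markers Gnat2, the cone transducin alpha subunit, and Arr3, cone arrestin, were over 1 CPM in every cell of both classes. The channel subunit Cnga3 was not: it exceeded 1 CPM in 6 of 12 M-dominant and 24 of 41 mixed cells at 2 months, and in 11 of 14 M-dominant and 6 of 12 mixed cells at P60. Xist, which marks cells with an inactive X chromosome, exceeded 1 CPM in 5 of 12 M-dominant and 10 of 41 mixed cells at 2 months, and in 0 of 14 M-dominant and 0 of 12 mixed cells at P60. At 2 months these were all the cells numbered 01 to 15 in the labels, and no cell numbered 16 to 53. Whether the cells with Xist came from other animals was not tested.

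Outside the opsins the 1 gene that the limma fit called between the classes was Ccdc136 (gene ID 232664). It is a coiled-coil gene and the next gene beside Opn1sw in the table. In the 2 months collection it had 1.08 CPM in the lowest, 63.3 CPM in the median and 1074 CPM in the highest M-dominant cell, against 0.890, 1184 and 4410 CPM in mixed cells. At P60 these values were 1.34, 157 and 1196 CPM in M-dominant cells, against 314, 1483 and 2536 CPM in mixed cells. The classes overlapped, yet 22 of 41 mixed cells at 2 months and 9 of 12 at P60 stood above every M-dominant cell of their collection. Below every mixed cell stood 9 of 14 M-dominant cells at P60 and none at 2 months, where the lowest mixed cell had 0.890 CPM.

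The mean of Ccdc136 was 275 CPM in M-dominant and 1342 CPM in mixed cells at 2 months, and 294 CPM in M-dominant and 1517 CPM in mixed cells at P60. The log2 ratio of the class means (mean CPM + 1, M-dominant over mixed) was -2.28 at 2 months and -2.36 at P60. In the fit over the 4 class means, with the collection as a block, it differed by -2.32 on the log2 scale (SE 0.21, 2 collections), with a limma adjusted p = 0.00150 over 9522 genes. It was the single gene that limma called: 1 gene was lower in M-dominant cells (0.0105% of those tested) and 0 were higher (0%), and 410 genes had an unadjusted p below 0.05. The second smallest adjusted p was 0.967, and a gene that was not called is not shown to be equal in the classes. The edgeR test on summed reads called 0 genes, with 175 below an unadjusted 0.05, while DESeq2 called 487 higher and 556 lower.

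The fit has 1 residual degree of freedom and leans on the spread shared over genes. Its p-values measure how far the class difference varied between the collections, and not the spread between animals or cells. The call of Ccdc136 was lost under 7 of 20 alternatives while its difference stayed between -4.32 and -2.12, with adjusted p between 1.29e-134 and 1.

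The same direction was seen in the P21 cells. There Ccdc136 had 0, 220 and 809 CPM in the lowest, median and highest M-dominant cell, against 3.04, 811 and 2797 CPM in mixed cells, and the mean was 321 CPM in M-dominant and 1109 CPM in mixed cells (log2 ratio -1.79). Of the mixed P21 cells, 5 of 10 stood above every M-dominant cell, and 6 of 14 M-dominant cells stood below every mixed cell. The latter count is an order of values near 0, as the lowest mixed cell had 3.04 CPM. P21 has 1 value per class, so this difference has no replicate check of its own.

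Some cells of both classes had nearly none of the transcript, and the difference was present with and without them. With a limit of 10 CPM, chosen after the values were seen, Ccdc136 was below it in 4 of 12 M-dominant and 3 of 41 mixed cells at 2 months, in 6 of 14 M-dominant and 0 of 12 mixed cells at P60, and in 6 of 14 M-dominant and 1 of 10 mixed cells at P21. Among the other cells the mean was lower in M-dominant cells: 411 CPM in M-dominant and 1448 CPM in mixed cells at 2 months, 514 CPM in M-dominant and 1517 CPM in mixed cells at P60, and 560 CPM in M-dominant and 1231 CPM in mixed cells at P21.

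Over all cells of a collection Ccdc136 followed S opsin more closely than M opsin, as a description over cells that share libraries with both opsins. Its Spearman coefficient with Opn1sw was 0.52 (53 cells, 2 months), 0.85 (26 cells, P60) and 0.67 (24 cells, P21), and with Opn1mw -0.31, 0.09 and 0.25. Within the mixed class alone its coefficient with Opn1sw was 0.23 (41 cells), 0.82 (12 cells) and 0.64 (10 cells), and within the M-dominant class 0.48 (12 cells), 0.41 (14 cells) and 0.52 (14 cells). Among the M-dominant cells of P60 its coefficient with Opn1mw was 0.50, no lower than that with Opn1sw. With depth (reads per cell) the coefficient was -0.20, 0.11 and 0.14 over all cells of the same collections. The M share chose the classes, so a ranking by it is a description and not independent of the class comparison. Ranked by the size of the coefficient with the M share, Ccdc136 came first of the 9522 genes at 2 months (-0.62) and at P60 (-0.76), and at rank 3 at P21 (-0.67). It was the 1 gene with a coefficient of at least 0.5 in size in both adult collections. The genes whose coefficient with the M share came next in both collections were the sulfhydryl oxidase gene Gfer (0.40 and 0.51), the kinase gene Map2k6 (-0.39 and -0.52) and Vtn, which encodes vitronectin (-0.35 and -0.54). At P21 their values were 0.05, 0.09 and 0.09, so Map2k6 and Vtn had the other sign there.

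**Figure D2:**
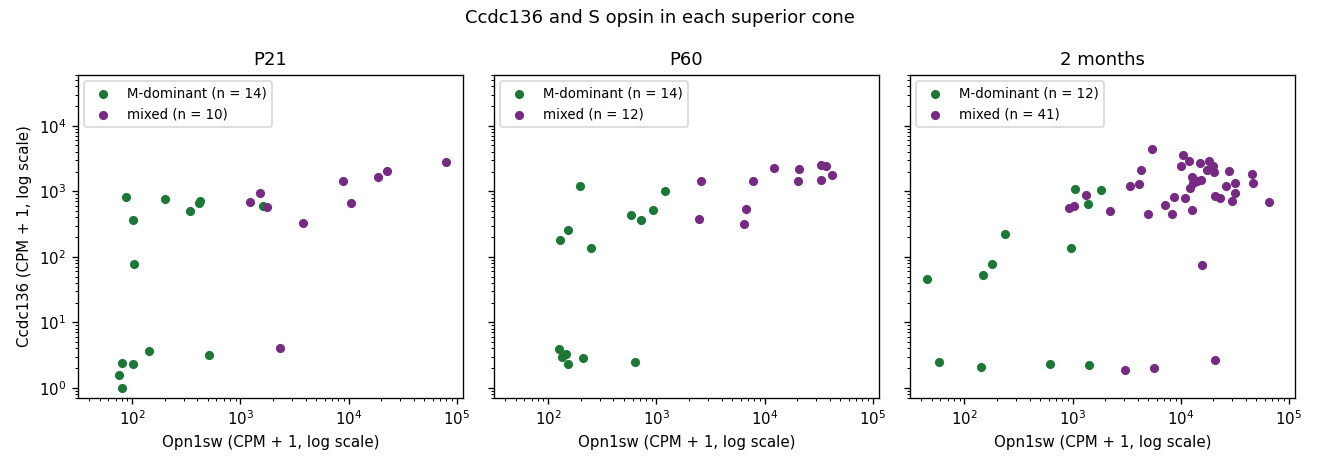
Ccdc136 (vertical) against S opsin (Opn1sw, horizontal) in each superior cone, both as CPM + 1 on log axes, for P21, P60 and the 2 months collection. M-dominant cells sit to the lower left, and 6 of 14 (P21), 6 of 14 (P60) and 4 of 12 (2 months) of them have under 10 CPM of Ccdc136, against 1 of 10, 0 of 12 and 3 of 41 mixed cells.

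Opn1sw and Ccdc136 lie side by side on mouse chromosome 6 in RefSeq intervals of GRCm38.p6, the build of the deposited regions (GRCm38/mm10). Opn1sw spans chr6:29376671-29380513 and Ccdc136 spans chr6:29396574-29426995, so that 16061 bases separate the gene intervals. Of the other protein-coding genes within 200 kb of Opn1sw, those in the table did not share the difference. Impdh1, an enzyme of guanine nucleotide synthesis, had 1386 CPM in M-dominant and 1417 CPM in mixed cells at 2 months (log2 ratio -0.03), and 1421 CPM in M-dominant and 1380 CPM in mixed cells at P60 (0.04). Hilpda, Atp6v1f, Irf5 and Tnpo3 had ratios of -0.87, 0.82, 1.28 and 1.13 at 2 months and of 0.11, 0.56, -1.15 and 0.22 at P60, and none was at least 2-fold in the same direction in both. Calu and Flnc, the other direct neighbours of the Opn1sw and Ccdc136 pair, were not analysed here.

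The same stretch of chromosome 6 holds regions of the other assays of the study. These are regions bound by a tagged receptor in retina of embryonic day 18 (ChAP-seq), and regions named induced or suppressed in an ATAC-seq comparison of control and receptor-knockout cones at postnatal day 30. Within 50 kb of Ccdc136 lay 3 receptor-bound regions, 1 induced region and 10 suppressed regions, and the same regions lay within 50 kb of Opn1sw. The receptor-bound region chr6:29394394-29394693 ended 1881 bases before the Ccdc136 interval, and chr6:29380490-29380789 overlapped the end of Opn1sw. Suppressed regions overlapped both genes, 3 of them Ccdc136 and 2 of them Opn1sw. Of the 9319 tested genes with a position, 5 (0.0537%) had at least 10 suppressed regions this near, Ccdc136 among them. How regions were called induced or suppressed is not given in the sources used here.

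Across the groups of the series, mean Ccdc136 was lower in rods than in M-dominant superior cones and higher in every labelled group of cones. Rods (tgNrl:gfp, 2 months) had a mean of 4.04 CPM (29 cells). Inferior control cones had 1754 CPM at 2 months and 2442 CPM at P60, above the mixed superior cones of the same collections, and receptor-knockout cones (Trb2Cre-KO:Ai6, 2 months) had 2152 CPM in superior and 2559 CPM in inferior retina. Control cones of P2 had 2108 CPM in superior and 3401 CPM in inferior retina, where Opn1sw averaged 4075 and 5261 CPM. Those of P8 had 1314 CPM in superior and 1835 CPM in inferior retina, where Opn1sw averaged 9231 and 28448 CPM. The P2 cones thus had more Ccdc136 than the adult mixed cones, and less Opn1sw. These means are a description with 1 value per group.

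The other genes that differed at least 2-fold in both adult collections were fewer than the genes that changed sides. The size rule, which has no test, asked for a log2 ratio of at least 1 in size in both collections. The higher class also had to average 10 CPM or more, and 25% or more of its cells had to exceed 1 CPM. In M-dominant cells 126 genes were higher (1.32% of 9522) and 116 lower (1.22%) in both collections, and 285 (2.99%) were higher in one collection and lower in the other. Taken alone, the 2 months collection had 887 higher (9.32%) and 831 lower (8.73%), and P60 had 1133 higher (11.9%) and 1090 lower (11.4%). Genes past the rule in the same direction were seen over 1 CPM in a median of 31.8% of cells, against 32.4% for all genes tested.

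In P21 cells the direction of these 242 genes was kept by 117 (48.3%). Of the 126 higher genes 68 (54.0%) were higher at P21, where 52.5% of all tested genes were, and of the 116 lower genes 49 (42.2%) were lower, against 45% of all tested genes. Past the size rule at P21 were 46 in the same and 48 in the opposite direction. Of the higher genes 19.8% passed it in the same direction (13.3% of all genes) and 13.5% in the opposite one (10.9%). Of the lower genes 18.1% passed it in the same direction (10.9% of all genes) and 26.7% in the opposite one (13.3%).

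**Figure D3:**
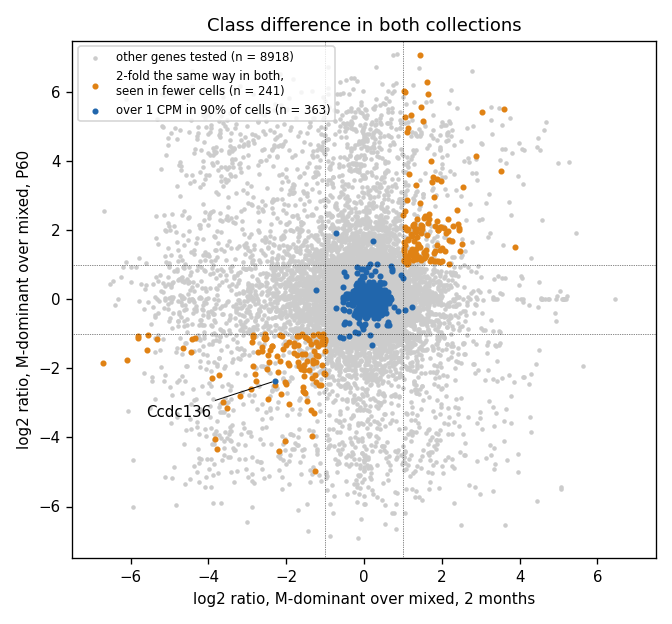
Log2 ratio of the class means (mean CPM + 1, M-dominant over mixed) at 2 months (horizontal) and P60 (vertical), 1 point per gene tested, with dotted lines at 2-fold. Blue points are the 363 genes over 1 CPM in at least 90% of cells of each class. Ccdc136 is the 1 blue point past 2-fold in the same direction on both axes, and it is blue through values just above 1 CPM in some cells. Orange points are the other 241 genes past the size rule in both.

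Genes over 1 CPM in nearly every cell had small ratios. This set, chosen after the data were seen, has 363 genes over 1 CPM in at least 90% of the cells of each class in both collections. Its median absolute log2 ratio was 0.18 at 2 months and 0.22 at P60, and Ccdc136 alone (0.275% of the set) was at least 2-fold in the same direction in both. The place of Ccdc136 in the set depends on the cut of 1 CPM. It was below 10 CPM in 4 of 12 M-dominant cells at 2 months and in 6 of 14 at P60, with lowest values of 1.08 and 1.34 CPM. Signs agreed between collections for 182 genes of the set (50.1%). Next after Ccdc136 in the lower direction came Serf2 with 179 CPM in M-dominant and 273 CPM in mixed cells at 2 months, and 261 CPM in M-dominant and 560 CPM in mixed cells at P60 (log2 ratios -0.61, -1.10 and, at P21, -0.70). Ran, a nuclear transport GTPase, had ratios of -0.54, -1.13 and -0.13, and Hypk -0.50, -0.72 and -0.39. Vtn, the matrix protein vitronectin that mouse photoreceptors express, had ratios of -0.49, -0.65 and -0.28, and Prom1, a disc-rim membrane protein, -0.40, -1.06 and 0.11. In the higher direction came the transcripts 9630029G12Rik (0.73, 0.88 and, at P21, -0.57), 4833439L19Rik (0.71, 0.82 and -0.20), Gm41810 (0.96, 0.70 and 0.47) and Particl (0.68, 0.96 and 1.18). The ratios of Serf2, Ran, Hypk, Vtn, Gm41810 and Particl thus had the same sign in all 3 collections, and those of Prom1, 9630029G12Rik and 4833439L19Rik did not. For Vtn the Spearman coefficient with the M share had the other sign at P21 (0.09).

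The 15 genes with the largest ratios in the higher direction were Zfp109, Ttc21b, Osbpl6, Mid1, Iqcg, Lrig2, Baz2a, Ubqln4, Tcf20, Tbck, Erc2, Carf, Bola2, Tnpo1 and Nktr. They were over 1 CPM in 25% to 91.7% of M-dominant cells at 2 months and in 28.6% to 57.1% at P60. Ttc21b, a part of the cilium transport machinery, had 128 CPM in M-dominant and 10.2 CPM in mixed cells at 2 months, and 60.6 CPM in M-dominant and 3.63 CPM in mixed cells at P60 (3.53 and 3.73, and -0.31 at P21). Mid1, a microtubule-bound ubiquitin ligase of the X chromosome, was over 1 CPM in 4 of 12 M-dominant and 7 of 41 mixed cells at 2 months, and in 6 of 14 M-dominant and 2 of 12 mixed cells at P60. Its mean ratios were 2.89 and 4.15, and 2.59 at P21, where 3 of 14 M-dominant and 1 of 10 mixed cells were over 1 CPM.

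Erc2, a scaffold of the synaptic active zone, had 53.3 CPM in M-dominant and 12.1 CPM in mixed cells at 2 months and 81.9 CPM in M-dominant and 18.6 CPM in mixed cells at P60 (2.05 and 2.08, and -0.25 at P21). Nktr, a cyclophilin-related gene, had 0.113, 25 and 1462 CPM in the lowest, median and highest M-dominant cell at 2 months, against 0, 0.241 and 288 CPM in mixed cells. At P60 it had 0, 0.437 and 637 CPM in M-dominant cells, against 0, 0.459 and 206 CPM in mixed cells. Its cells overlapped through most of the range, and its higher mean came from the top cells. Of these 15 genes, 8 were higher in M-dominant cells at P21, and 2 (Ubqln4, a ubiquitin-binding shuttle, and Tbck) passed the size rule there in the same direction. Osbpl6, a lipid-transfer gene, and Tcf20, a transcriptional coregulator, passed it in the opposite direction.

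The 15 genes with the largest ratios in the lower direction were 1700028E10Rik, Ppp4r2, Btbd7, Fam168a, Cdkl2, Cdh18, Gm26873, Scaper, Coil, Akap17b, Ccdc136, Asnsd1, Pigq, A730006G06Rik and Sms. Without Ccdc136 they were over 1 CPM in 26.8% to 78% of mixed cells at 2 months and in 25% to 66.7% at P60. Scaper, a gene mutated in a human retinal degeneration syndrome, had 6.34 CPM in M-dominant and 49.6 CPM in mixed cells at 2 months, and 10.3 CPM in M-dominant and 56.5 CPM in mixed cells at P60 (-2.79 and -2.35, and -2.59 at P21). It was over 1 CPM in 2 of 12 M-dominant and 11 of 41 mixed cells at 2 months and in 2 of 14 M-dominant and 4 of 12 mixed cells at P60, and its median was under 1 CPM in both classes. Cdh18, a cell adhesion cadherin, had 1.76 CPM in M-dominant and 19.6 CPM in mixed cells at 2 months and 1.49 CPM in M-dominant and 14.1 CPM in mixed cells at P60 (-2.90, -2.60 and, at P21, -2.68). Sms, spermine synthase, had 40.8 CPM in M-dominant and 183 CPM in mixed cells at 2 months and 6.95 CPM in M-dominant and 52.1 CPM in mixed cells at P60, but 20.53 CPM in M-dominant and 4.06 CPM in mixed cells at P21. Of these 15 genes, 6 were lower in M-dominant cells at P21, and Cdh18, Scaper, Ccdc136 and Pigq passed the size rule there in the same direction, while 5 passed it in the opposite one.

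Thrb (gene ID 21834), the receptor gene, was not called by limma. At 2 months it had 1.12, 106 and 516 CPM in the lowest, median and highest M-dominant cell, against 0, 81.5 and 1340 CPM in mixed cells. At P60 it had 26.1, 183 and 582 CPM in M-dominant cells, against 0, 467 and 1014 CPM in mixed cells. The means were 145 CPM in M-dominant and 233 CPM in mixed cells at 2 months, and 222 CPM in M-dominant and 517 CPM in mixed cells at P60, and limma gave a difference of -0.95 (SE 0.32, 2 collections) with an adjusted p = 0.967. At P21 the order was the other way, with 12.5, 651 and 1534 CPM in M-dominant cells, against 0, 77.5 and 1074 CPM in mixed cells, and means of 613 CPM in M-dominant and 206 CPM in mixed cells (log2 ratio 1.57). The classes overlapped in all 3 collections, and with P21 added to the fit the difference was -0.11.

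**Figure D4:**
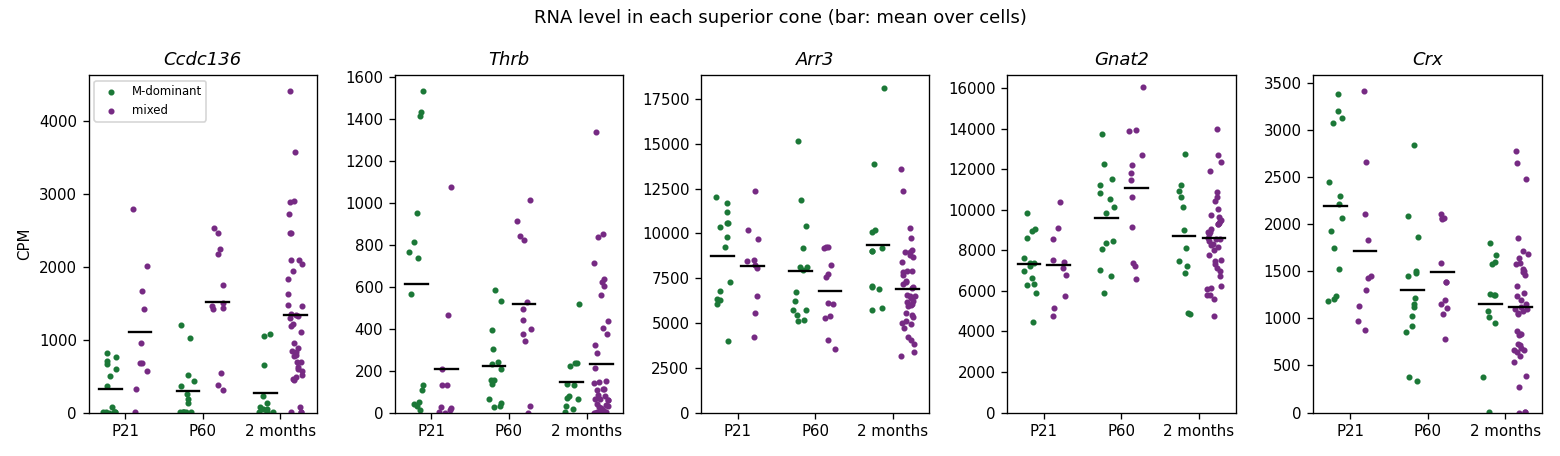
CPM of Ccdc136, Thrb, Arr3, Gnat2 and Crx in each superior cone of P21, P60 and the 2 months collection, on linear axes from 0; points are cells, M-dominant left of mixed, and bars are means over cells. Ccdc136 means are lower in M-dominant cells in all 3 collections, Thrb means are lower at P60 and 2 months and higher at P21, and the other genes overlap broadly.

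Of 14 thyroid hormone pathway genes tested, 0 were past the size rule in the same direction in both collections, near the 1.32% higher and 1.22% lower of all genes, and the list median was -0.07 at 2 months and 0.06 at P60, against -0.07 and 0.05 for all genes tested. Rxrg, the retinoid X receptor partner found in cones, had 183 CPM in M-dominant and 166 CPM in mixed cells at 2 months, and 114 CPM in M-dominant and 52.4 CPM in mixed cells at P60 (0.14 and 1.11, and -0.03 at P21). Hr, a hormone-responsive corepressor, had 32.9 CPM in M-dominant and 64.1 CPM in mixed cells at 2 months and 9.01 CPM in M-dominant and 46.9 CPM in mixed cells at P60 (-0.94 and -2.26, and 0.05 at P21). Ncor1, a corepressor of the receptor, had ratios of -0.12 and -0.18, and Klf9, a hormone-responsive factor, -0.21 and -0.75. In a single collection the rule was passed by the coactivator Ncoa1 at 2 months (1.35, and 0.11 at P60). At P60 it was passed by Rxrg and the partner receptor Rxrb (1.63, and -0.74 at 2 months) in the higher direction, and by Thrb, Hr and the Mediator subunit Med1 (-1.28, and -0.02 at 2 months) in the lower one. Of all genes, 11.9% passed it as higher and 11.4% as lower at P60.

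Genes that an earlier analysis of these data found lower or higher in knockout cones, or higher in superior or inferior retina, are no independent evidence here. Of 16 genes lower without the receptor, 0 were past the size rule in both (medians 0.01 and -0.20), and of 8 tested genes higher without it, 0 were (0.12 and 1.36). Of all genes tested 1.32% were past it as higher and 1.22% as lower. In lists this short a count of 0 is near that share. Arr3 had 5728, 9005 and 18107 CPM in the lowest, median and highest M-dominant cell at 2 months, against 3135, 6533 and 13623 CPM in mixed cells, and 5091, 7347 and 15143 CPM in M-dominant against 3572, 6840 and 9242 CPM in mixed cells at P60. Its means were 9327 CPM in M-dominant and 6922 CPM in mixed cells at 2 months, and 7919 CPM in M-dominant and 6808 CPM in mixed cells at P60. That difference was 0.32 (SE 0.09), with a limma adjusted p = 0.967. Rd3l, a relative of the guanylate cyclase regulator Rd3, had ratios of 0.29 and 0.03, and Aldoc, a glycolytic aldolase, -0.13 and -0.21. Of the genes higher without the receptor, Abhd14b had ratios of -0.08 and 3.86, and N4bp2l2 changed sides (-1.83 and 1.25).

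Of 9 genes higher in superior retina, 0 were past the rule in the same direction (medians 0.04 and 0.13). That is near the share of all genes (1.32% higher and 1.22% lower). The nuclear import gene Kpna2 had ratios of 0.49 and 0.29, the repair enzyme Smug1 -0.53 and -0.27, and the photoreceptor repressor Samd7 0.04 and -0.42. The transcript A930001M01Rik changed sides (-1.02 and 1.16). Of the 2 tested genes higher in inferior retina, Ccdc136 was lower in M-dominant cells, and the channel subunit Kcne2 had 536 CPM in M-dominant and 621 CPM in mixed cells at 2 months and 590 CPM in M-dominant and 663 CPM in mixed cells at P60 (-0.21 and -0.17). Of the ventral patterning genes 0 passed the filter of 5 CPM, with Ephb2 and En2 at or below 1.36 CPM in each adult class. Of 3 dorsal genes tested 0 were past the rule in both collections, again near the share of all genes. The nuclear receptor Nr2f2 had 15.9 CPM in M-dominant and 25.2 CPM in mixed cells at 2 months (-0.63), and Aldh1a1, a retinoic acid enzyme, had 18.9 CPM in M-dominant and 13.8 CPM in mixed cells (0.42).

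Of 21 cone phototransduction genes 0 were past the rule in both collections, near the background share of 1.32% higher and 1.22% lower, and the medians were 0.01 and -0.01. Their ratios ran from -1.05 to 0.46 at 2 months and from -0.39 to 0.79 at P60. Gnat2 had 4851, 8538 and 12763 CPM in the lowest, median and highest M-dominant cell at 2 months, against 4781, 8574 and 13975 CPM in mixed cells (ratio of means 0.01, and -0.21 at P60). Sag, the arrestin that rods and mouse cones share, had ratios of -0.10 and -0.31. Cnga3, a cone channel subunit, was the one member past the rule in a collection, with 63.0 CPM in M-dominant and 132 CPM in mixed cells at 2 months (-1.05), and 294 CPM in M-dominant and 169 CPM in mixed cells at P60 (0.79). Of 16 photoreceptor transcription factors 0 were past it in the same direction (medians -0.13 and 0.09), and their ratios ran from -2.88 to 1.03 at 2 months and from -4.61 to 5.12 at P60. Sall3, which promotes S opsin in mouse, changed sides, with 14.2 CPM in M-dominant and 54.6 CPM in mixed cells at 2 months and 145 CPM in M-dominant and 35.1 CPM in mixed cells at P60. Crx, the photoreceptor homeodomain factor, had ratios of 0.04 and -0.20, and Neurod1, -0.18 and 0.76.

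For the cell-biological lists the counts in the same direction were also 0, near the share of all genes (1.32% higher and 1.22% lower), and medians are given for 2 months and then P60. They were -0.09 and 0.05 for 23 outer segment and cilium genes (Unc119, 0.05 and 0.05; Cdhr1, 0.13 and 0.06), and -0.01 and 0.01 for 20 synaptic terminal genes (Snap25, 0.17 and -0.15; Cplx3, -0.18 and -0.50). They were -0.03 and -0.11 for 19 glycolysis genes (Pkm, -0.03 and -0.08; Aldoa, -0.05 and 0.48). For 20 genes of mitochondrial respiration they were 0.11 and 0.14 (Atp5b, 0.04 and -0.16; Atp5a1, 0.09 and 0.13).

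Stress and immediate early genes had a median of 0.88 at P60 and of 0.17 at 2 months over the 9 tested. Past the rule in the same direction were 0, near the share of all genes (1.32% higher and 1.22% lower). At P21, which has 1 value per class, the median was 0.76, with Fos at 4.46, Egr1 at 1.83 and Junb at -0.63. Egr1, an immediate early factor, had 697 CPM in M-dominant and 16.9 CPM in mixed cells at P60, and exceeded 1 CPM in 8 of 14 M-dominant and 1 of 12 mixed cells. At 2 months it had 21.5 CPM in M-dominant and 44.8 CPM in mixed cells, over 1 CPM in 1 of 12 M-dominant and 2 of 41 mixed cells. Fos exceeded 1 CPM in 5 of 14 M-dominant and 0 of 12 mixed cells at P60, and in 0 of 12 M-dominant and 3 of 41 mixed cells at 2 months. Hspa5, an endoplasmic reticulum chaperone, had ratios of 0.17 at 2 months and 0.33 at P60, and Ddit3, a stress-response factor, changed sides (-1.06 and 1.58). Whether handling of the cells had a part in these values was not tested.

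**Figure D5:**
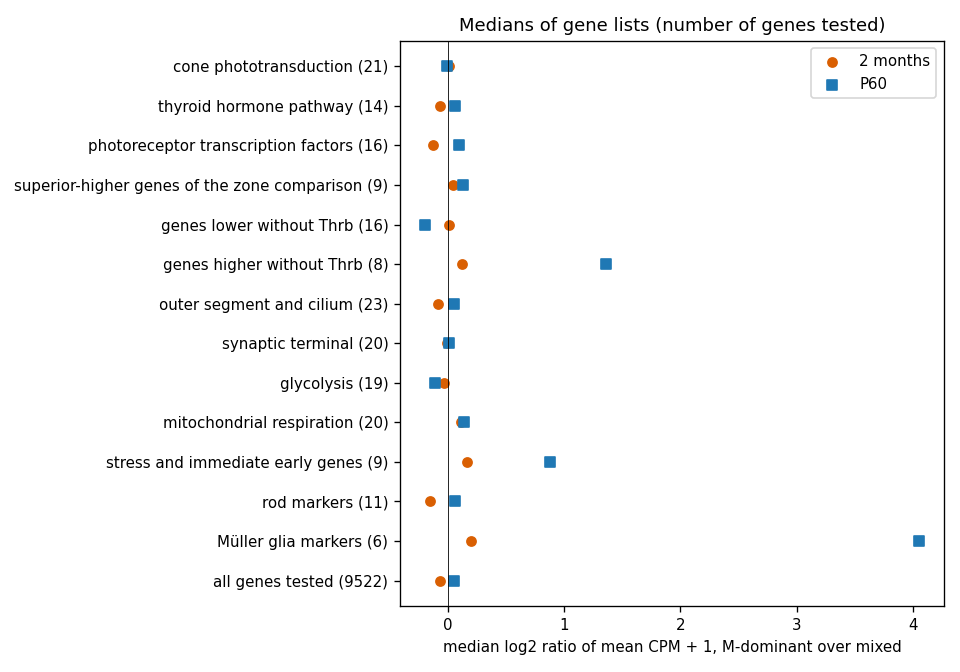
Median log2 ratio of the class means (M-dominant over mixed) for each list with at least 5 genes tested and for all genes tested, at 2 months (circles) and P60 (squares); the number of genes tested follows each name. Most medians lie within 0.2 of 0, and the Müller glia, stress and knockout-higher lists lie at 4.05, 0.88 and 1.36 at P60 but at 0.20, 0.17 and 0.12 at 2 months. The Müller glia median at P60 rests on genes over 1 CPM in few cells.

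Markers of other cell types were read in the same cells. The summed rod markers averaged 3265 CPM in M-dominant and 3031 CPM in mixed cells at 2 months, and 3622 CPM in M-dominant and 3733 CPM in mixed cells at P60. Of 11 rod markers tested 0 were past the rule in both (medians -0.16 and 0.06), near the share of all genes (1.32% higher and 1.22% lower). Pde6g had ratios of 0.19 and -0.14, and Gngt1 of 0.16 and 0.15. Summed Müller glia markers averaged 1110 CPM in M-dominant and 989 CPM in mixed cells at 2 months, and 880 CPM in M-dominant and 480 CPM in mixed cells at P60. Their single-cell ranges overlapped, at 0.534 to 2300 CPM in M-dominant and 1.01 to 1606 CPM in mixed cells at P60. The median of the 6 tested Müller genes was 0.20 at 2 months and 4.05 at P60, where Apoe had 64.3 CPM in M-dominant and 0.923 CPM in mixed cells. That P60 median rests on few cells. Over 1 CPM were Apoe in 7 of 14 M-dominant and 1 of 12 mixed cells, and Glul in 4 of 14 and 2 of 12. Dkk3 and Slc1a3 were each over 1 CPM in 1 of 14 M-dominant and 0 of 12 mixed cells. Clu had ratios of 0.08 and 0.67, and Rlbp1 had 111 CPM in M-dominant and 86.1 CPM in mixed cells at 2 months and 8.45 CPM in M-dominant and 17.9 CPM in mixed cells at P60. At P21 the order of the summed Müller markers was the other way, with means of 750 CPM in M-dominant and 1388 CPM in mixed cells. The mixed mean includes 1 cell at 6369 CPM, and the medians were 638 CPM in M-dominant and 790 CPM in mixed cells. The part of these markers in other results was not tested.

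Markers of inner retinal neurons were near 0 apart from the glycine transporter Slc6a9, with 8.97 CPM in M-dominant and 17.7 CPM in mixed cells at 2 months and 22.4 CPM in M-dominant and 59.4 CPM in mixed cells at P60. Of the markers of pigment epithelium, microglia, vessel and blood the table holds Csf1r, with 5.19 CPM in M-dominant and 2.15 CPM in mixed cells at 2 months and 5.12 CPM in M-dominant and 2.82 CPM in mixed cells at P60. Of the sex-linked list it holds Xist, with a mean of 15.5 CPM in M-dominant and 6.61 CPM in mixed cells at 2 months and 0 CPM in both classes at P60. With cells of at most 1 CPM of Xist alone, an alternative chosen after seeing the data, Ccdc136 differed by -2.20 (limma adjusted p = 0.00477).

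Genes past the size rule lay near receptor-bound and receptor-dependent regions about as often as other genes. A receptor-bound region lay within 50 kb of 39.5% of the 124 placed higher genes and 46% of the 113 placed lower genes, against 38.8% of all 9319 placed genes. For induced regions the shares were 36.3% of higher and 40.7% of lower genes, against 35.8% of all. For suppressed regions they were 14.5% of higher and 10.6% of lower genes, against 12.5% of all. The shares lay near those of all genes.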

How the data were processed

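The authors deposited 1 table of CPM per gene and cell, scaled to each library's depth. Per the submitters' processing notes, bcl2fastq 2, STAR 2.7.3a and MACS2 2.2.7.1 were used with GRCm38/mm10; the sources used here do not give the counting tool or annotation. The table has 10390 genes, which held 85.7% to 93.0% of each superior cell's reads. Depth was 8.98e+05 to 3.26e+07 reads per cell, from the CPM step, and 100% of values below 1000 reads were whole multiples of it within 0.1 reads. The deposited region lists give positions on GRCm38/mm10.

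Libraries 03 and 14 of P60 (Pearson r 0.993 on centred log2 values; highest other pair -0.000765) were averaged as 1 cell. Cells are not replicates: each class had 1 mean CPM per collection. Genes averaging 5 CPM or more over the 4 class means, without the opsins, were tested on log2(mean CPM + 1) of the 4 class values with limma 3.58.1 (R 4.3.3; trend, collection as a block), Benjamini-Hochberg adjustment and a threshold of 0.05. A ratio with that pseudocount understates low genes. edgeR 4.0.16 and DESeq2 1.42.0 on recovered reads were alternatives. Of these tests limma and edgeR were checked on simulated data, where limma recovered only the largest changes made. DESeq2 was not checked in this way. Gene intervals are RefSeq, matched by gene ID for 10149 genes. Genes named are the opsins and Thrb, the 15 per direction with the largest smaller ratio, list members past the size rule in both collections and the 2 most abundant members of each list; others were chosen after their values were seen. Members and lists were chosen with earlier results of these data known. Some items are not reported here.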

Additional observations from a re-analysis of the deposited data

Results flagged for a closer look

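The difference of Thrb between the classes had the other direction at P21, where the log2 ratio of M-dominant over mixed was 1.57, against -0.69 in the 2 months collection and -1.21 at P60. The difference between the ages was not tested, since each collection gives 1 ratio. In the 10 mixed cells of P21 a single cell stood far above the others for Thrb, at 1074 CPM, and a single cell for Opn1sw, at 79328 CPM. Opn1sw is a value that chose the classes. About 1 group in 20 gives such a gap by chance, and 4 genes were looked at in that group. The values of single cells were skewed, so that rate may be too low here.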

How the results depend on the processing

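The classes rest on 2 collections without named animals, and the sparse genes on few cells, so a 2-fold difference in a single sparse gene has no replicate check beyond those collections. Counts higher and lower by the size rule, 126 and 116, became 218 higher with log values averaged over cells, 63 and 217 without the highest cell of each class, 74 and 68 with a pseudocount of 10, 194 and 221 at a limit of 0.95, 25 and 21 with P21 added, 887 and 831 in 2 months alone, 1133 and 1090 in P60 alone, and, chosen after seeing the data, 199 lower in cells with Xist at most 1 CPM and 0 and 1 among genes over 1 CPM in 90% of cells. Without the highest cell, 40 of the 126 higher and 83 of the 116 lower genes were shared. The limma count of 1 became 0 with a pseudocount of 0.1, no filter, a limit of 0.95, size factors, P21 added, no collection block or edgeR, 3 (Arr3, Zfp512 and Ccdc136) at 20 CPM, and 1043 with DESeq2. Ccdc136 then had limma adjusted p = 0.0669, 0.955, 0.876, 0.108, 0.111 and 0.647, and 1 with edgeR. Thrb was lower in each alternative and passed with DESeq2 alone (-0.94, adjusted p = 0.0319). Reversed were Iqcg (-0.076) and Baz2a (-0.59) at 0.95, Baz2a (-0.24) and Coil (0.17) with P21 added, and Erc2 (-0.90) in cells with low Xist; the cause was not tested. The share kept at P21 stayed between 44.4% and 53.2%, and that near receptor-bound regions between 36.1% and 44.2%. An alternative on Y-linked genes was not run, as the table used here holds none. No paired analysis was possible because replicate numbers in the labels number cells within a group; the block in the fit is the collection.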
